A study of Mus musculus with 4 samples.

Results

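The colony-stimulating factors and their receptors were read by 11 of the array's 41174 probes. They make up 7 of 27729 gene names. The members were all probes whose gene name in the scanner files was Csf1, Csf2, Csf3, Csf1r, Csf2ra, Csf2rb or Csf3r, and all 7 genes had a probe. RNA came from cultured mouse spermatogonial stem cells (C57/BL6 x DBA/2 F1, age given as day 5), the germ cells that renew themselves in the testis. On each of 4 two-colour Agilent arrays the green channel (Cy3) held treated cells, from which FGF2 had been withdrawn while the FGF receptor inhibitor SU5402 was added, with 12 h in the source label. The red channel (Cy5) held control cells kept in normal culture, a medium free of serum whose listed factors are GDNF (40 ng/ml) and FGF2 (5 ng/ml). The labels number the 4 arrays as replicates and do not say whether these came from separate cultures, so p-values measure the spread between these samples, which may be technical. Nor do they say whether feeder cells were present. The comparison shows what differs when FGF2 is withdrawn and SU5402 is added together. No sample had only one of these changes, so their effects cannot be told apart. Dyes were not swapped, so a dye effect on a probe and the treatment cannot be told apart.

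Colony-stimulating factors are secreted proteins that keep blood cells of the myeloid line alive and make them divide and mature. Csf1 (M-CSF) acts on macrophages through the receptor tyrosine kinase Csf1r, Csf3 (G-CSF) on neutrophils through Csf3r, and Csf2 (GM-CSF) on both through a ligand-binding alpha subunit, Csf2ra, and a signalling beta subunit, Csf2rb, which is shared with the receptors of interleukins 3 and 5. In the testis, Csf1 is made by somatic cells, and addition of Csf1 has been described to favour self-renewal of spermatogonial stem cells in culture.

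The members split between higher and lower in the treated cells. Csf1 and the receptor alpha subunit Csf2ra were higher, by log2 ratios of 0.59 and 0.78, while Csf1r, the beta subunit Csf2rb and Csf3 were lower on every array. Of the 11 probes, 7 passed the scanner's mark for signal well above background (the same channel, 3 or more of the 4 arrays) and were tested, and these covered 5 of the 7 genes. Of these 7 probes 2 were called higher and 5 lower (limma, adjusted p under 0.05 over 27730 probes), where 66.4% of all tested probes were called, 37.3% higher and 29.1% lower. By the brightest tested probe of each gene, 2 of 5 members were higher and 3 lower, against 67.4% of 18454 genes called, 37.1% higher and 30.3% lower. A call of a member is therefore what most genes of these arrays gave, and the sizes and the pattern among members are described below. Csf3 passed the filter through its control channel alone, so a lower value there was built into its selection.

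Treated channels had 26613 to 28496 probes well above background, and control channels had 25533 to 27891. Log2 ratios of different arrays correlated across probes with a Pearson r between 0.889 and 0.943, where probes are not independent replicates. The germ cell genes Ddx4 and Dazl were well above background in both channels on all 4 arrays, and so were all 14 markers of fibroblasts. Levels below are log2 channel intensities after normalization. They compare samples for a probe and do not rank probes against each other.

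**Figure D1:**
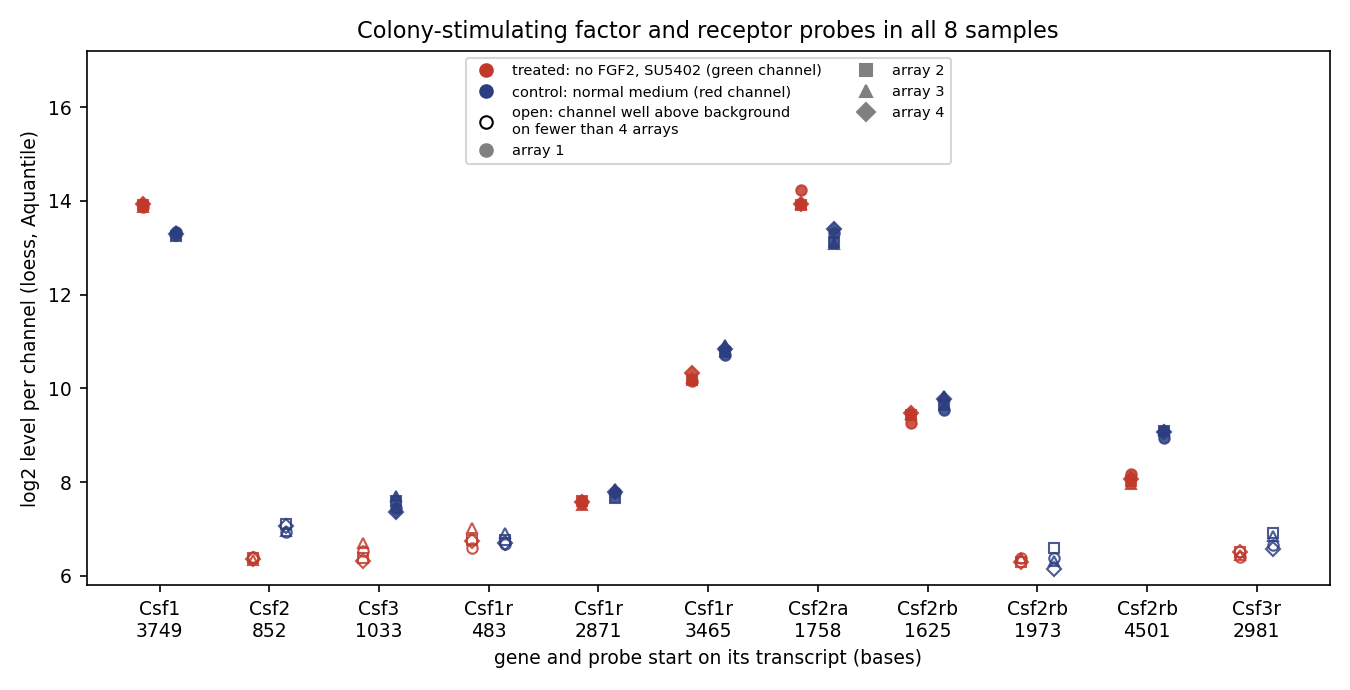
Log2 level of each of the 11 member probes (x axis, gene and probe start on its transcript in bases) in the 4 treated samples (red) and the 4 control samples (blue), with a symbol for each array and open symbols where a channel was well above background on fewer than 4 arrays. Csf1 and Csf2ra lie higher in all treated samples, the brighter probes of Csf1r and Csf2rb lie lower, and Csf2 and Csf3r lie near background.

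Csf1, the growth factor of macrophages, had a single probe printed 10 times on each array, at chromosome 3, 107544333 to 107544392 (mm9). Its treated levels were 13.86, 13.91, 13.87 and 13.94 in replicates 1 to 4, and its control levels were 13.33, 13.25, 13.35 and 13.30. The lowest treated sample lay above the highest control sample. The log2 ratio was 0.59 (SE 0.071, n = 4, limma adjusted p = 7.2e-05), a 1.51-fold rise, and 79.4% of tested probes had a ratio at or below it. The spots of a replicate gave log2 ratios with an SD of at most 0.024, against an SD of 0.074 between the 4 arrays, so the spread between arrays was not that of repeat spots. The rise was 0.42 with the scanner software's own ratio.

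Csf3, the growth factor of neutrophils, was detected in the control cells and not well above background in any treated sample. Its control levels were 7.46, 7.59, 7.72 and 7.37, and its treated levels were 6.52, 6.38, 6.70 and 6.32, which do not overlap. Its control level was set against the lowest treated signal well above background, or its own treated level on an array where that was higher. By this bound Csf3 was at least 1.54-fold lower in treated cells (limma adjusted p = 2.36e-06 for the log2 ratio of -1.05, SE 0.075). The filter was passed through the control channel alone, so the direction of this test was built in. The size beyond the bound of 1.54-fold rests on the processing. The scanner software's processed signals were between 83.6 and 99.1 in control cells and between 6.71 and 18.3 in treated cells, and gave a log2 ratio of -3.22 in place of -1.05. The offset of 50 added in the main background correction pulls ratios of dim spots toward 0, and with an offset of 16 the ratio was -1.48. The probe lies on chromosome 11 at 98564614 to 98564673 (mm9).

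Csf2, which drives granulocytes and macrophages, was at the edge of detection. Its probe, also printed 10 times, was well above background on 1 of 4 arrays in control cells and on none in treated cells, so it was not tested. Control levels were 6.93, 7.12, 6.96 and 7.06, and treated levels 6.41, 6.38, 6.35 and 6.35. All control samples lay above all treated samples. No bound on the fold is given, since the control channel was well above background on only 1 of 4 arrays. The log2 ratio was -0.65 ± 0.098 (SD, n = 4). Without the filter on dim probes its limma adjusted p was 6.73e-05 over 41174 probes, from values mostly not well above background. Csf3r, not well above background in any sample, had a limma adjusted p of 0.0139 in that fit. Such a p-value therefore does not show that a gene was detected. The processed signals of Csf2, 30.5 or more in control and 6.19 to 9.25 in treated cells, gave -2.10. The files place 28 bases of the probe on chromosome 11 at 54060772 to 54060799 (mm9).

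Csf2ra, the subunit that binds Csf2, rose while the beta subunit that carries the signal fell. Treated levels of Csf2ra were 14.23, 13.92, 13.94 and 13.93, and control levels 13.31, 13.12, 13.08 and 13.41. Every treated sample lay above every control sample, and array 4 gave the smallest ratio (0.52, against 0.80 to 0.92 on the others). The log2 ratio was 0.78 (SE 0.085, n = 4, limma adjusted p = 3.97e-05), a 1.71-fold rise, and 84.9% of tested probes had a ratio at or below it. Its single probe lies on chromosome 19 at 61300336 to 61300395 (mm9).

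Csf2rb had 3 probes, and they did not give the same size of change. The probe at base 4501 of the transcript had treated levels of 8.17, 8.02, 7.97 and 8.06 and control levels of 8.94, 9.10, 9.11 and 9.08. This is a 2.00-fold fall (log2 -1.0, SE 0.082, limma adjusted p = 6.31e-06), and only 1.34% of tested probes had a ratio as low. The probe at base 1625, the brightest of Csf2rb, had treated levels of 9.26, 9.43, 9.46 and 9.48 against control levels of 9.54, 9.65, 9.84 and 9.78, a log2 ratio of -0.29 (SE 0.070, limma adjusted p = 0.00481). Both probes were lower in all treated samples, and within an array the probe at 4501 was lower than the probe at 1625 by 0.49 to 0.86. The exact two-sided sign-flip test of such a difference over 4 arrays cannot go below p = 0.125, and no other test of these differences was run. The smaller change rests on the normalization: it was -0.22 when arrays were centred on the median without loess (limma adjusted p = 0.222), and -0.56 with the scanner software's ratio.

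The probe of Csf2rb at base 1973 was not well above background in any of the 8 samples, although it lies between the other two probes. Its levels were between 6.30 and 6.38 in treated cells and between 6.14 and 6.60 in control cells. The probe sequences, from the scanner files, are shown for the positions at 1625 and 1973, since the files assign both to Csf2rb and they gave different results. Both have a reading frame without a stop codon. The first spans an exon junction on chromosome 15 at 78176856 to 78177118, and the second lies at 78178640 to 78178699 (mm9). Mice carry a close copy of the gene, Csf2rb2, next to it, and how far each probe also binds that copy was not tested.
Csf2rb at 1625: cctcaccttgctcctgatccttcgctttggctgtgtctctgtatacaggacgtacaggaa
Csf2rb at 1973: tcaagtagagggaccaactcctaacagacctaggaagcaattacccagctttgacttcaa

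Within each array, Csf2ra and Csf2rb moved apart. The log2 ratio of Csf2ra exceeded that of Csf2rb by 1.07 ± 0.19 (SD, n = 4) at the probe at 1625 and by 1.78 ± 0.21 at the probe at 4501. The difference was above 0 on all 4 arrays for both probes. Each ratio is taken within an array, so this shows unequal change of the subunits' messenger RNA and not which of them was constant.

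Csf1r, the receptor of Csf1, was lower, again with probes of unequal size. At base 3465 treated levels were 10.16, 10.18, 10.23 and 10.32 and control levels 10.72, 10.78, 10.92 and 10.83, with no overlap. This was a 1.51-fold fall (log2 -0.59, SE 0.071, limma adjusted p = 7.02e-05). At base 2871 treated levels were 7.57, 7.59, 7.52 and 7.58 and control levels 7.79, 7.66, 7.85 and 7.78, a log2 ratio of -0.20 (SE 0.074, limma adjusted p = 0.0356). That smaller call ended when replicate 1, 3 or 4 was left out, with limma adjusted p-values of 0.0988, 0.120 and 0.0647. It also ended with median centring (-0.18, limma adjusted p = 0.304) and with no background correction (-0.18, limma adjusted p = 0.0585). The probe at base 483 was not well above background in any sample. Ligand and receptor moved in opposite directions: the log2 ratio of Csf1 exceeded that of Csf1r at 3465 by 1.19 ± 0.074 (SD, n = 4), and did so on all 4 arrays.

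Csf3r, the receptor of Csf3, was not well above background in any of the 8 samples. Its levels ran from 6.40 to 6.52 in treated cells and from 6.58 to 6.91 in control cells, and no fold is given, since both channels were below the detection mark. The probe maps to chromosome 4, 125721294 to 125721353 (mm9).

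**Figure D2:**
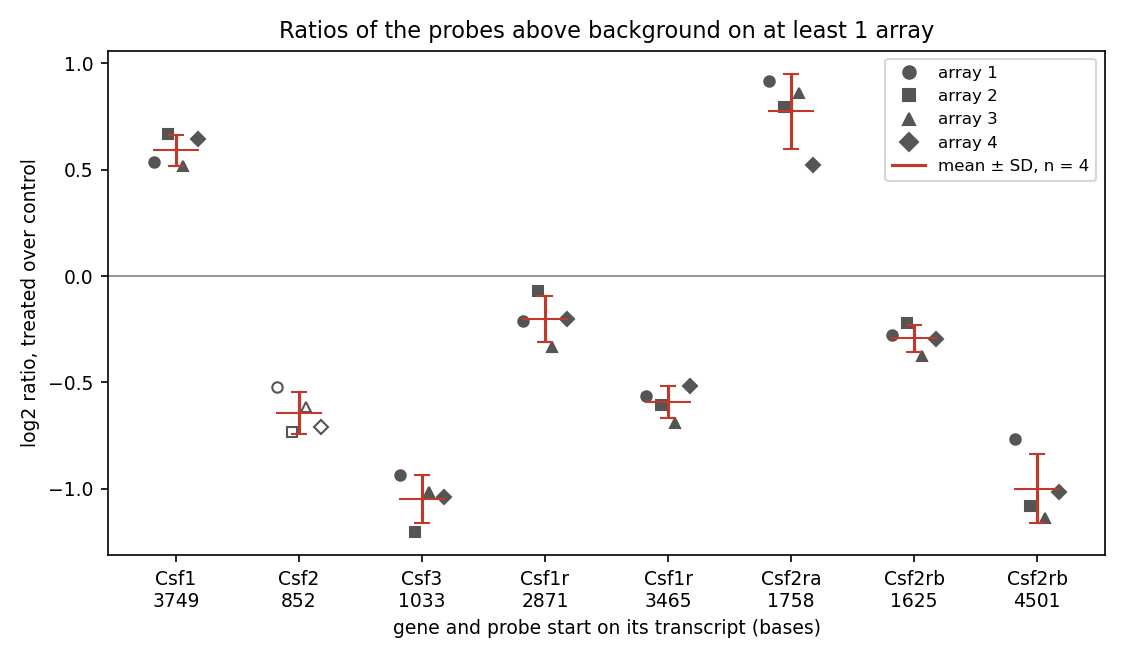
Log2 ratio of treated over control on each of the 4 arrays (grey symbols) with mean and SD (red), for the 8 member probes that were well above background on at least 1 array in a channel; open symbols mark Csf2, which was not tested. Csf1 and Csf2ra lie above 0 on all 4 arrays, and the probes of Csf2, Csf3, Csf1r and Csf2rb lie below 0 on all 4.

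The sequences before the start of Csf1 and Csf2ra are shown because these members rose together. RefSeq promoter entries were found for 4 of the 7 members in the GRCm38.p6 table. Each line gives 250 bases before the annotated start, 5′ to 3′ on the minus strand, at chr3:107760470-107760719 for Csf1 and chr19:61228419-61228668 for Csf2ra. Capitals mark matches, on either strand, to 4 motifs: GGG and CC with 5 free bases between them, a loose NF-kB form, TGACGTCA, the cyclic AMP response element, TGANTCA, the AP-1 element, and GAGGAAG, an ETS core with a purine flank.
Csf1: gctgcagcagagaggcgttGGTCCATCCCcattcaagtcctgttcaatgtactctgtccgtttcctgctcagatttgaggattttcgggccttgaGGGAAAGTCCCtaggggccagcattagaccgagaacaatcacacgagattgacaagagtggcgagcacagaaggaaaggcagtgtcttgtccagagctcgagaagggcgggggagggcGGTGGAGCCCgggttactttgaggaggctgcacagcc
Csf2ra: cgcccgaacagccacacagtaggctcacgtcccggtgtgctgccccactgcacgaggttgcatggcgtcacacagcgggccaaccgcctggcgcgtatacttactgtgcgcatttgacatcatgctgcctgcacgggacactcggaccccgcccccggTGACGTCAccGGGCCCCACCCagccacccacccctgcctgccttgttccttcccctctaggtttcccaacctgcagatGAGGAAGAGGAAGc

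Csf1 held 4 matches to the NF-kB form, at positions -231, -155, -154 and -37 from its start, of which those at -155 and -154 overlap on opposite strands. It held no match to the other motifs. Csf2ra held 1 cyclic AMP response element at -92, 2 overlapping matches to the NF-kB form at -82 and -81, and 2 overlapping ETS cores at -14 and -8. Of 32817 promoter windows of 250 bases, 45.8% held the NF-kB form, 1.55% the cyclic AMP response element, 6.75% the AP-1 element and 10.6% the ETS core. These are letter matches in a window and were not measured as binding sites.

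Relatives of the factors and receptors went both ways. Of 10 such genes, 7 had a tested probe, and 3 were higher and 2 lower. The share called was 71.4%, near the 67.4% of all genes. The median log2 ratio of the relatives was 0.029, against 0.023 over all genes. Il34, the other ligand of Csf1r, rose as Csf1 did, by a log2 ratio of 0.53 (SE 0.080, limma adjusted p = 0.000332). Il3ra, the alpha subunit that pairs with the beta subunit for interleukin 3, was higher by 0.42 (SE 0.073), while Csf2rb2, the close copy of Csf2rb that serves interleukin 3, was lower by a log2 ratio of -0.94 (SE 0.079, limma adjusted p = 7.09e-06). Both alpha subunits with a tested probe, Csf2ra and Il3ra, were thus higher, and the tested probes of both beta subunits lower. Il5ra, Il3 and Il5 had no tested probe.

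The receptor kinases related to Csf1r showed the same opposition of ligand and receptor in one case. Kitl, the stem cell factor made by Sertoli cells, was 4.90-fold higher (log2 2.29, SE 0.071, limma adjusted p = 2.16e-08), and Kit, its receptor on differentiating spermatogonia, was lower by a log2 ratio of -0.69 (SE 0.10). A dimmer probe of Kitl was also higher, with its control channel below background on all 4 arrays. Flt3l and its receptor Flt3 were at 0.029 and 0.0050 and were not called (limma adjusted p = 0.745 and 0.960).

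Of 36 genes that carry the signals of these receptors, 34 had a tested probe, with 12 higher, 12 lower and 10 not called. The share called was 70.6%, near the 67.4% of all genes, and the median was 0.044 on the log2 scale. With the scanner software's ratio 9 were higher and 14 lower. Cish and Socs2, feedback inhibitors that STAT5 switches on downstream of cytokine receptors, had log2 ratios of 1.78 and 1.30, and the transcription factor gene Stat5b itself of 1.26. Pik3r1, a regulatory subunit of PI3 kinase, was at 1.35. The kinase Jak2, which binds the beta subunit, was at 0.041 (limma adjusted p = 0.663), and Stat5a at -0.070 (limma adjusted p = 0.424). In the same list Pim1 and Pim2 were lower, at -0.63 and -0.62, and Socs3 was not called (0.11, limma adjusted p = 0.239). Jak2, Stat5a, Pim1, Pim2 and Socs3 were picked with their values known. Activity of STAT5 was not measured. Among the lower genes of the list, Dok2, an adaptor that damps kinase signals, was at -1.10. Tyrobp, an adaptor of macrophage receptors, was at -0.84, and Socs1, an inhibitor of JAK kinases, at -0.61. Pik3cg, the PI3 kinase subunit of leukocytes, was at least 1.31-fold lower and likewise passed the filter through the control channel alone.

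Of 20 genes that induce Csf2 and Csf3 in stromal cells and macrophages or belong to NF-kB, 19 had a tested probe, with 10 higher and 6 lower and a median of 0.27. Over all genes 37.1% were higher and 30.3% lower, and with the scanner software's ratio 7 of the list were higher and 8 lower. The cytokine genes Il1b, Il1a and Tnf were above background on all control arrays and on no treated array, with bounds of at least 3.73-fold, 1.89-fold and 1.84-fold lower. Like Csf3, they passed the filter through the control channel alone, so a lower value was built into their selection. The interleukin 1 receptor Il1r1 was at 1.46, its natural antagonist Il1rn at 1.80, the TNF receptor Tnfrsf1a at 1.40 and the NF-kB subunit gene Nfkb1 at 1.30. The other TNF receptor gene, Tnfrsf1b, picked with its value known, was lower at -0.26 (limma adjusted p = 0.0147). Relb, another NF-kB subunit, was at -0.38 (SE 0.079, limma adjusted p = 0.00214).

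Of 18 transcription factors of myeloid cells, 12 had a tested probe, with 7 higher and 3 lower and a median of 0.27, where 37.1% of all genes were higher and 30.3% lower. The balance rests on the processing: 4 were higher and 4 lower with the scanner software's ratio, and 6 higher and 6 lower of 17 (median -0.032) without the filter on dim probes. Without replicate 1 or without replicate 2, 4 were higher and 3 lower. The C/EBP genes Cebpd and Cebpb, which act in myeloid and other cells, were at 1.65 and 0.72, and Klf4, a factor of monocytes and epithelia, at 0.44. Runx1, Irf5 and Egr2 were lower, at -0.53, -0.50 and -0.35. Spi1 (PU.1), the main activator of Csf1r in macrophages, had no tested probe; it was picked after this was known.

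Most tested markers of macrophages and neutrophils were lower. Of 24 macrophage markers, 22 had a tested probe, with 5 higher, 14 lower and 3 not called, and their median was -0.52 on the log2 scale. Among all genes 37.1% were higher and 30.3% lower. The summed level of the macrophage markers ran from 79868 to 92858 in the treated samples and from 177755 to 200383 in the control samples. A sum of intensities, in this and the other lists, weighs bright probes most. The brightest here was Lyz2, with mean levels of 15.60 in treated and 16.76 in control samples. Cd163 and Ccr2 had no tested probe. Marco, a scavenger receptor, and Adgre1, a surface protein of mature macrophages, had log2 ratios of -3.21 and -2.21, larger falls than any tested probe of Csf1r or Csf2rb, while Mertk (0.72), Mrc1 (0.35) and Aif1 (0.33) were higher. Cx3cr1, also higher, passed the filter through the treated channel alone, so a higher value was built into its selection. Of the 21 macrophage markers above background in both channels on all arrays, 4 were higher and 14 lower. Of 16 neutrophil markers, 9 had a tested probe, with 8 lower and none higher and a median of -1.71. S100a8, Fpr2 and Mmp8 among them passed the filter through the control channel alone, so a lower value was built into their selection. Without that filter 15 markers had a value, with 10 lower, none higher and a median of -0.47, and of the 5 above background in both channels on all arrays 4 were lower (median -1.34). The antimicrobial gene Lcn2 was at -2.90 and the receptor gene Fpr1 at -2.93. The summed level of the 9 was 3985 to 4473 in treated and 17411 to 18339 in control samples, and S100a9, Ly6g, Elane, Ltf, Ngp, Cxcr2 and Retnlg had no tested probe. In bulk RNA, fewer cells of a type and less RNA per cell cannot be told apart, and the part of these cells in the lower values of Csf1r, Csf2rb, Csf2 and Csf3 was not tested.

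Most tested markers of fibroblasts and of Sertoli, Leydig and peritubular cells were higher. For each list in this paragraph the shares over all genes were 37.1% higher and 30.3% lower. Of 14 fibroblast markers 13 were higher and none lower (median 1.37), and their summed level was 1944882 to 2021818 in treated and 748090 to 834156 in control samples. Of 16 markers of Sertoli, Leydig and peritubular cells, 14 had a tested probe, with 13 higher and 1 lower (median 1.94, summed level 640322 to 697529 against 152411 to 163888). Fshr among them passed the filter through the treated channel alone, so a higher value was built into its selection. Of the 12 above background in both channels on all arrays, 11 were higher and 1 lower. Insl3 and Lhcgr, of Leydig cells, had no tested probe. Csf1 and Csf2ra rose by less than the medians of both lists, and the part of these cells in their rise was not tested. Markers of endothelial cells (8 genes, 2 higher, 5 lower, median -0.28, summed level 11227 to 14401 against 13582 to 15982) and of mast, T and B cells (6 of 14 tested, 1 higher, none lower, median -0.062, summed level 2426 to 3065 against 2238 to 2365) had medians closer to 0. Of 16 spermatogonial and germ cell markers 15 had a tested probe, with 1 higher and 8 lower and a median of -0.22. Their summed level was 262247 to 294304 in treated and 355048 to 393685 in control samples. The brightest probe of that sum was Uchl1, with mean levels of 16.39 in treated and 17.05 in control samples.

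**Figure D3:**
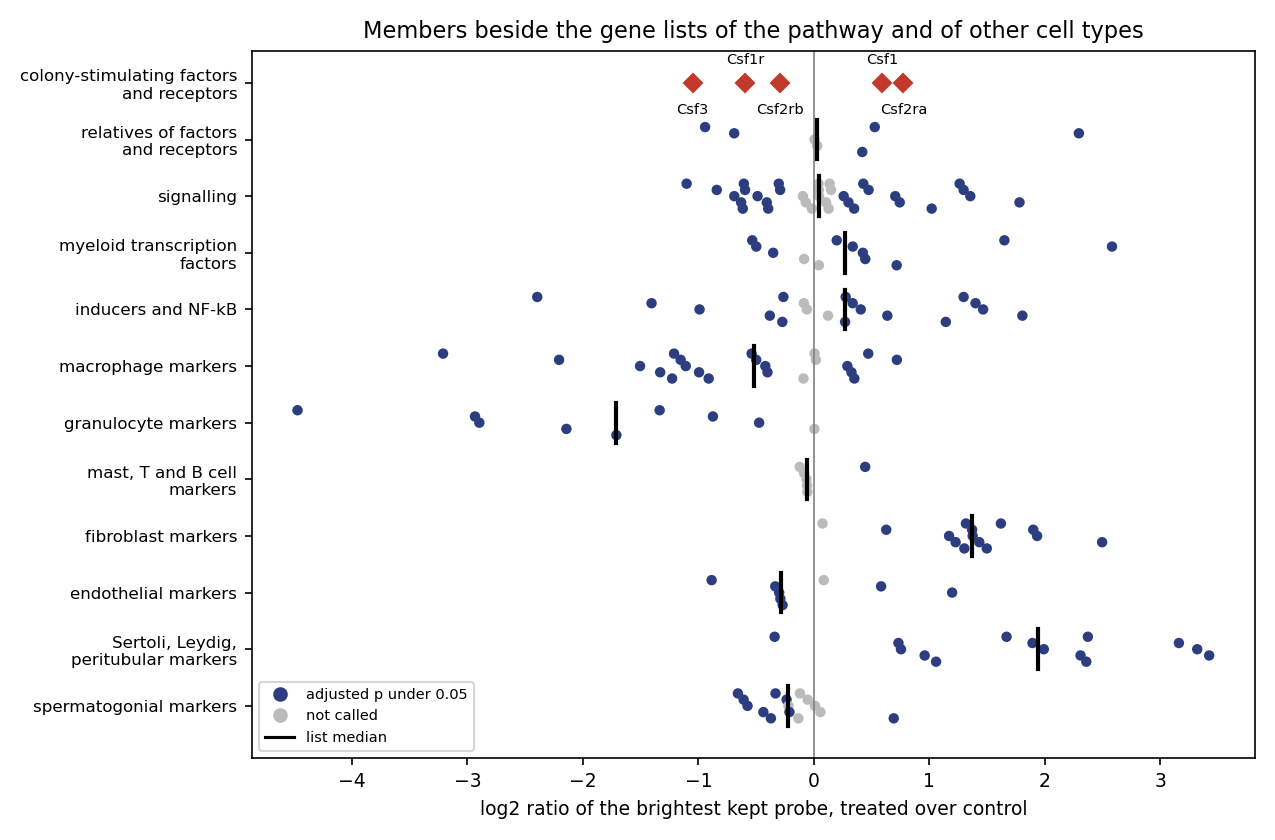
Log2 ratio of treated over control (x axis) of the brightest tested probe of the 5 tested members (red diamonds) and of the genes of 11 lists, blue where called by limma and grey where not, with a black bar at the median of each list. The members lie on both sides of 0, from Csf3 at -1.05 to Csf2ra at 0.78.

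**Figure D4:**
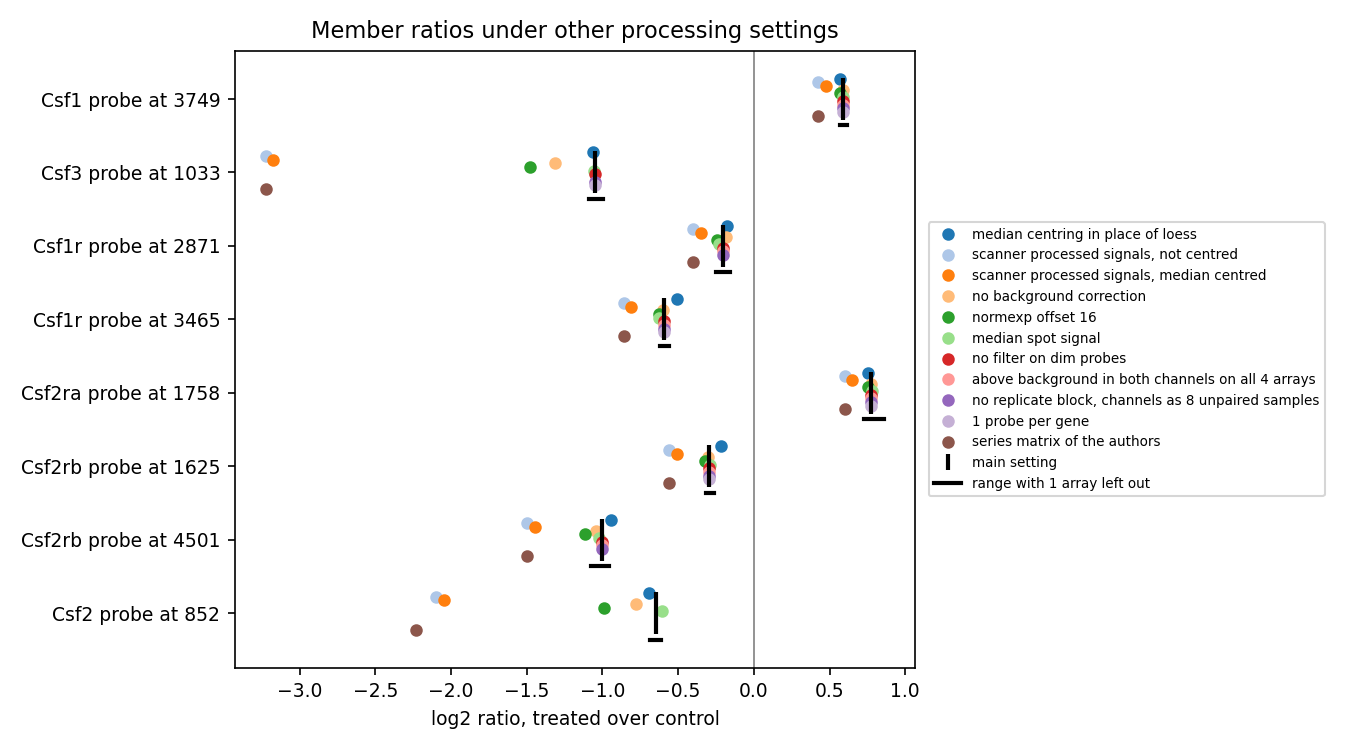
Log2 ratio of each tested member probe and of Csf2 (x axis, treated over control) under the main setting (black tick), 11 other settings (coloured points) and with 1 array left out (black bar, range). Every probe keeps its sign, and the dim probes of Csf3 and Csf2 reach -3.22 and -2.23 where the scanner software's signals are used.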

How the data were processed

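RNA of 4 treated and 4 control samples was paired on 4 two-colour arrays, on 1 slide and in 1 scan per the file headers. The deposited scanner files give spot and background intensity, with no normalization, read with version 10.5.1.1 of Agilent Feature Extraction per the submitters' processing notes. Their processed intensity had its background subtracted and its dyes normalized in that software, as the columns per the file headers show. LogRatio gives red over green as log10, per the file headers, and served as an alternative ratio. The authors also deposited a series matrix of log2 values. No label states how it was scaled, centred or directed, but for 100% of 40929 probes printed once it matched log2 of green over red processed intensity within 0.001. Its column medians were -0.26, 0.011, 0.11 and -0.058, so the arrays were not centred.

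Here, background was corrected by normexp (offset 50) and green over red was normalized by loess, with weight 0 for control spots. Outlier spots (141 to 171 per array) were left out, and spots of a probe were averaged. Tested probes were well above background in one channel, the same one, on 3 or more of the 4 arrays. The 4 log2 ratios of each were tested against 0 (lmFit and eBayes, limma 3.58.1, R 4.3.3, two-sided), with Benjamini-Hochberg adjustment over 27730 probes. In lists a gene stood by its brightest tested probe. Channel levels are after loess and Aquantile scaling. A bound sets the bright channel against the lowest signal well above background in the dim one. On an array where the dim probe's own signal was higher than that, its own signal was used. RefSeq (GRCm38.p6) gave names for 25097 probes by accession and 7973 by symbol or synonym. The code was tested on simulated data. No pair of arrays agreed within the noise of repeat spots: over 245 probes printed 10 times, differences had an SD of 0.20 or more, where repeat spots give 0.032 or less.

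Members and gene lists were chosen with earlier results of these data known. The text names all members, all relatives and, from the pathway, macrophage and neutrophil lists, genes among the 4 of smallest adjusted p in each direction. Genes nearest to Csf3 in pattern are not named, since its treated channel was not above background. Other genes are named as checks (Ddx4, Dazl, genes without a tested probe), for their weight in a sum or their way through the filter. Those picked with their values known are marked as such. The number of arrays limits the precision, with a median SD of 0.15 between arrays.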

Additional observations from a re-analysis of the deposited data

Results flagged for a closer look

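Of 49 sets of 4 log2 ratios examined, 4 had an array far from the others, where chance flags about 1 in 20 sets. None was a member. Socs1 was at -0.79 in replicate 4, against -0.53 to -0.56 in the others. Runx1 was at -0.82 in replicate 3, with the others between -0.46 and -0.41. Tnfrsf1a was at 1.70 in replicate 3 and between 1.26 and 1.34 elsewhere. Relb was at -0.17 in replicate 2 and between -0.47 and -0.42 elsewhere.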

How the results depend on the processing

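Under all alternatives run (normalization, signal, background, filter, pairing, probe choice, series matrix and leaving out each array), the 7 tested member probes and Csf2 kept their sign. The calls of Csf1, Csf3, Csf2ra, Csf1r at 3465 and Csf2rb at 4501 held in each alternative that could be run for them. For Csf3, requiring both channels above background could not be run, since no treated array was. Its lower call was built into its selection wherever the filter applied. When arrays were centred on the median without loess, the calls of Csf1r at 2871 (-0.18, limma adjusted p = 0.304) and Csf2rb at 1625 (-0.22, limma adjusted p = 0.222) ended, and with no background correction that of Csf1r at 2871 did too (-0.18, limma adjusted p = 0.0585). Without 1 array Csf1r at 2871 ranged from -0.25 to -0.16, and its call ended without replicate 1, 3 or 4. Csf2 was at -0.65, and moved to -2.10 with processed signals, -2.05 with these centred, -0.78 with no background correction, -0.99 with an offset of 16 and -2.23 in the series matrix. 

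Across all features that centring gave 4885 lower probes in place of 8063 and 3583 lower genes in place of 5598. Higher probes were 56.2% of those called, 42.4% with processed signals (median of all probes moved by -0.15), 48.0% with these centred (moved by -0.10) and 63.4% with median centring. Of 350 list counts under alternatives, 39 moved by over 1.5 times, 14 of them with the second brightest probe of each gene, which fewer genes have. Among the rest, the higher myeloid factors went from 7 to 4 with processed signals, the series matrix, unpaired channels and without replicate 1 or 2, and the higher macrophage markers from 5 to 2 or 3 with processed signals and the series matrix. Lower myeloid factors went from 3 to 6 without the filter on dim probes, and lower neutrophil markers from 8 to 4 where both channels had to be above background on all arrays. Lower inducers went from 6 to 3 and lower endothelial markers from 5 to 1 with median centring. The ratio pairs the 2 samples of an array; treating channels as 8 unpaired samples (no replicate block) left the member values and calls as they were, with Csf1 at 0.59 and Csf2ra at 0.78. Probes not well above background limit Csf2, Csf3 and Csf3r.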
